A study of Homo sapiens with 3 samples.

Results

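The Notch pathway was described in HepG2, a human cell line from a liver tumour, through 10 genes: the receptors NOTCH1, NOTCH2 and NOTCH3, the ligands JAG1 and JAG2, the mastermind coactivators MAML1, MAML2 and MAML3, the DNA-binding protein RBPJ and the target gene HES1. The genes were chosen by name with earlier results of these data known, the GO difference of MAML2 among them. Their values are therefore a description and support no test. All probe sets that carried exactly 1 gene symbol were taken, which gave 10 probe sets for 9 of the 10 genes, of 19460 such probe sets for 18417 genes. MAML1 had none, because both of its probe sets were also assigned to LTC4S. RBPJ had 2 probe sets and the other 8 genes had 1 each.

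The series held 3 Affymetrix arrays, 1 per group: untreated cells, cells given graphene oxide (GO) and cells given reduced graphene oxide (rGO), which carries fewer oxygen groups. Both exposures lasted 24 h at the EC20 of the material, which the labels derive from viability assays over a range of concentrations. The concentrations themselves are not in the labels, so the amounts given may differ between the materials. No group had a replicate, so no difference below has an error, and dish, array and exposure cannot be told apart. In such bulk RNA, fewer cells of a type and less RNA per cell cannot be told apart either.

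Notch signalling passes between touching cells. A ligand such as JAG1 on one cell binds a receptor on the next, ADAM proteases and gamma-secretase cut the receptor, and its intracellular domain enters the nucleus, where it joins RBPJ on DNA and a mastermind protein that recruits acetyltransferases. HES1, a repressor of transcription, is the classic gene switched on by that complex. In the liver, JAG1 and NOTCH2 direct the formation of bile ducts, and loss of a copy of either gene causes Alagille syndrome.

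Promoter windows of 300 bases, from 250 before to 50 after an annotated start, were matched by symbol in RefSeq (GRCh38.p14) for all 10 genes, 14 windows in all. They were searched on both strands for GTGGGAA, the core of the sequence that RBPJ binds, and for the shorter TGGGAA contained in it. GTGGGAA was found in windows of 2 of the 10 genes, HES1 and RBPJ, and in 7.62% of all 27305 genes with such windows (6.25% of 35116 windows). TGGGAA was found in the same 2 genes, and in 28.1% of all genes (24.0% of windows). RBPJ had 5 windows and the other 9 genes 1 each, so RBPJ had more chances of a match. The HES1 window (chr3:194135898-194136197, plus strand) is shown because HES1 is the pathway's target gene, with GTGGGAA starting 85 bases and a further TGGGAA 70 bases upstream of the start. The RBPJ window with matches (chr4:26319496-26319795, plus strand; 1 of 5 windows of this gene) has GTGGGAA on the strand of the gene and its reverse complement further upstream. The MAML2 window (chr11:96343146-96343445, minus strand) is shown because MAML2 had the largest difference, and neither motif was found in it. Capitals mark the matches. A match is a description of the letters and not a measured binding site.
HES1: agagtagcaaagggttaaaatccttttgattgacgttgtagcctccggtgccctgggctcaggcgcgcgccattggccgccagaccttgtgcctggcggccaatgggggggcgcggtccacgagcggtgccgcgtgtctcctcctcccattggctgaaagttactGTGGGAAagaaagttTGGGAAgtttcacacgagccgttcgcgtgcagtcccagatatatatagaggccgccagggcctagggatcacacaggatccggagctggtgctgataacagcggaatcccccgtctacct
RBPJ: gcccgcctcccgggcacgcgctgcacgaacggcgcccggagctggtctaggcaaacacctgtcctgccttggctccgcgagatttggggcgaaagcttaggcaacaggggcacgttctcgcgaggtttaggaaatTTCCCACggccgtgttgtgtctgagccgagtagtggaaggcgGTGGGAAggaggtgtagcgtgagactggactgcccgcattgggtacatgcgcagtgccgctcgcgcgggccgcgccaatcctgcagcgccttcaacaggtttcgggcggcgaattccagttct
MAML2: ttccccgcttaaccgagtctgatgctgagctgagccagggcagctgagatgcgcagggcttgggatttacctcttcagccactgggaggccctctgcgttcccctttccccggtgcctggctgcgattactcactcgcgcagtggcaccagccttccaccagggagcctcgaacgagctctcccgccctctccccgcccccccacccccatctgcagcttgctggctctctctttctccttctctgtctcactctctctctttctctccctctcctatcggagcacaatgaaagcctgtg

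After GO, the Notch genes shared no single direction. The coactivator MAML2 stood far above control (1.19) and the receptor NOTCH2 moderately above it (0.49). The ligand JAG1 stood slightly above control (0.22). HES1 (-0.17), and RBPJ on its stronger probe set (-0.15), stood slightly below it. Of the 9 measured genes, 6 passed a filter on the level, a mean over the 3 arrays of at least log2 6.66 (the 40th percentile of all genes): NOTCH2, NOTCH3, JAG1, MAML2, RBPJ and HES1. NOTCH1, JAG2 and MAML3 lay under it, where background can hide a change. A size of 1.5-fold served to count genes, in place of the test that single arrays do not allow. In GO against control, 1 of the 6 genes past the filter was at least 1.5-fold higher (MAML2), beside 1.91% of all 11050 genes past the filter, and 0 were at least 1.5-fold lower, beside 4.23%. MAML2 was also the 1 gene at least 2-fold higher, a size reached by 0.253% of all genes. These counts include the value with which the set was chosen, and nothing is read from them. The median difference over the 9 genes was 0.03 on the log2 scale, with 5 above 0 and 4 below, beside -0.01 over all 18417 genes. Over the 6 genes past the filter it was 0.13, beside 0.01 over all genes past it. The summary depends on which genes enter and how: it was 0.22 with the filter at the 60th percentile, and the mean over the 9 genes was 0.19.

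**Figure D1:**
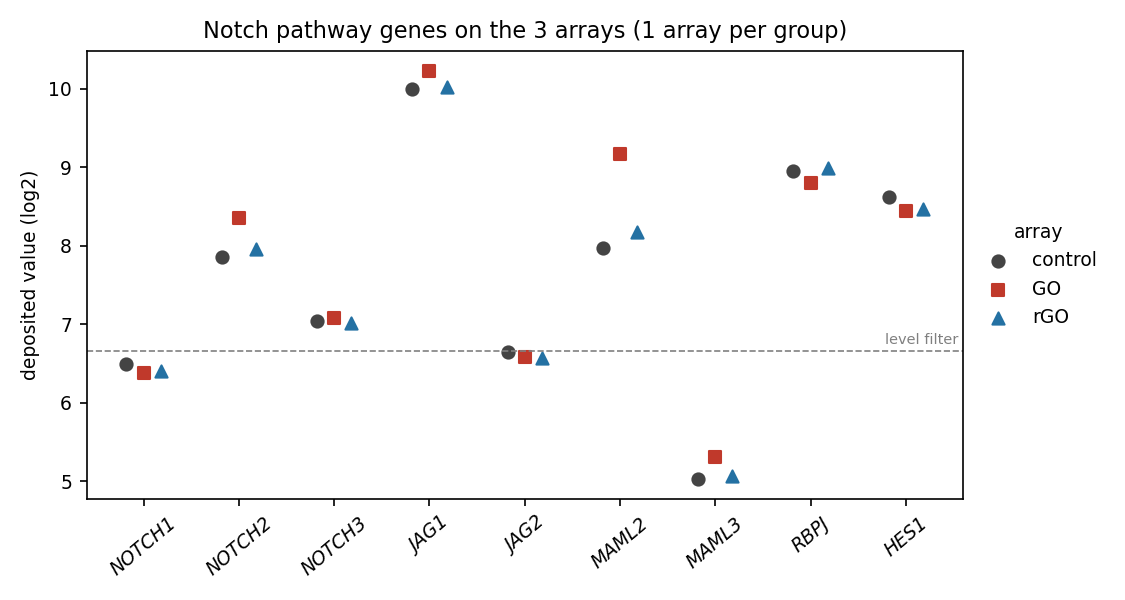
Deposited log2 values (vertical axis) of the 9 measured genes on the control, GO and rGO arrays, 1 point per array; the dashed line is the level filter at 6.66. MAML2 stood at 9.17 on the GO array against 7.98 and 8.18 on the others. HES1 was nearly level on the GO and rGO arrays (8.45 and 8.47), below its control value of 8.62. RBPJ is drawn from its stronger probe set, which was lowest on the GO array, whereas its weaker probe set was lowest on the control array. Levels of different genes come from different probes and are not comparable.

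Among the receptors, NOTCH2, the receptor of bile duct formation, had a value of 7.86 in control cells, 8.35 after GO and 7.96 after rGO. The GO array was the highest of the 3, 1.40-fold above control (log2 difference 0.49), and rGO lay close to control (0.10). Of all genes past the filter, 10.1% differed from control by more than NOTCH2 did after GO, in either direction. A further probe set, assigned to NOTCH2 together with its partial human copies NOTCH2NLA and NOTCH2NLB, had values of 8.44 in control, 8.70 after GO and 8.66 after rGO. There both exposures stood above control to a like extent (0.25 and 0.22), unlike the 0.49 and 0.10 of the probe set that names NOTCH2 alone, and which of the 3 genes the shared probe set reads is unknown.

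NOTCH3, a receptor best known from vascular smooth muscle, had values of 7.05, 7.08 and 7.02 in control, GO and rGO. Its 3 arrays lay within 0.06 of each other. NOTCH1, the receptor most studied in T-cell leukaemia, had values of 6.49, 6.38 and 6.40, all under the filter level. Both exposures stood slightly lower than control (-0.11 and -0.09). Of the 3 receptors, NOTCH2 therefore had the largest difference after GO.

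JAG1, the ligand of the Jagged family that is mutated in most Alagille families, had a value of 10.001 in control, 10.22 after GO and 10.02 after rGO. The GO array was again the highest, 1.17-fold above control (0.22), and 38.4% of all genes past the filter differed by more. JAG2, the other Jagged ligand, had values of 6.64, 6.58 and 6.57, under the filter level on all 3 arrays. Its differences were -0.06 after GO and -0.07 after rGO.

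MAML2, the mastermind coactivator known for its gene fusions in mucoepidermoid carcinoma, had a value of 7.98 in control, 9.17 after GO and 8.18 after rGO. It was 2.28-fold higher after GO (1.19), the 12th highest of 11050 genes, and 1.15-fold higher after rGO (0.20). MAML3, its paralogue, had values of 5.03, 5.31 and 5.07, under the filter level on each array, with differences of 0.27 and 0.04. Both measured mastermind genes thus had their highest value on the GO array and their lowest on the control array. MAML1 cannot be given a value of its own. The probe sets it shares with LTC4S, the gene of leukotriene C4 synthase, stood at 8.24, 8.17 and 8.07, and at 7.12, 7.16 and 6.89, in control, GO and rGO. Their GO differences were -0.07 and 0.04, and neither showed the step seen for MAML2.

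RBPJ, the DNA-binding partner of every Notch receptor, had values of 8.95 in control, 8.80 after GO and 8.99 after rGO on its stronger probe set. The GO array was the lowest of the 3 (-0.15). The weaker RBPJ probe set went the other way, with 6.32, 6.44 and 6.52 and differences of 0.12 after GO and 0.20 after rGO. It lay under the filter level on all 3 arrays, and averaging the 2 probe sets left a GO difference of -0.02. The direction for RBPJ after GO therefore rests on the choice of probe set.

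HES1 had values of 8.62 in control, 8.45 after GO and 8.47 after rGO. Both exposed arrays lay below control by nearly the same amount (-0.17 and -0.14). After GO, 48.8% of all genes past the filter differed by more in either direction, and after rGO 22.8% did. After GO, the target gene lay on the opposite side of control from MAML2, NOTCH2 and JAG1. The differences of HES1 and JAG1 were small, however. HES1 was nearly level between GO and rGO (-0.03), so both of its differences rest on the shared control array.

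**Figure D2:**
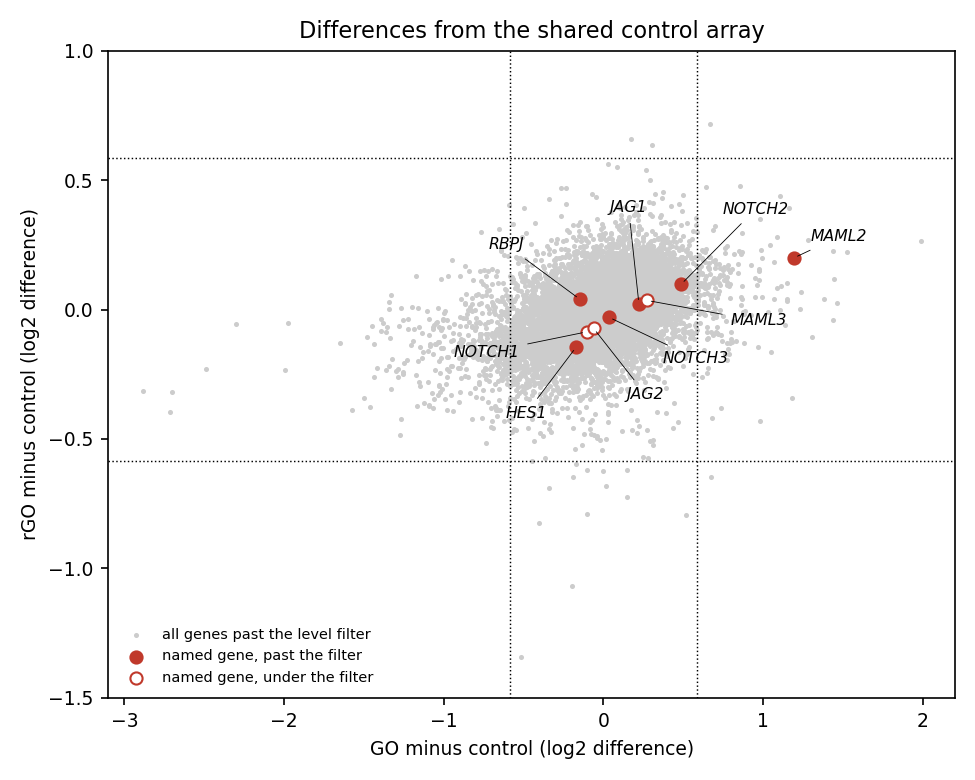
Each point is a gene, placed by its log2 difference from control after GO (horizontal axis) and after rGO (vertical axis); both differences share the control array, so a tilt of the cloud is no result. MAML2 lies at 1.19 and 0.20, beyond the dotted 1.5-fold line for GO, and the other 8 named genes lie inside all 4 lines.

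After rGO the differences of these genes were smaller than 1.5-fold throughout. Differences of the 9 genes ran from -0.14 (HES1) to 0.20 (MAML2), with a median of 0.02 over the 9, beside -0.02 over all 18417 genes. MAML2 was again the highest, and 10.9% of all genes past the filter differed from control by more than it did after rGO. In rGO against control, 0 of the 6 genes past the filter were at least 1.5-fold higher, beside 0.0271% of all genes, and 0 were at least 1.5-fold lower, beside 0.127%. The GO and rGO values of each gene use the same control array and are set side by side without a measure of likeness.

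The direct comparison of the materials, each at its own EC20, again had MAML2 highest and NOTCH2 next. GO exceeded rGO by 0.99 for MAML2 (1.99-fold), by 0.39 for NOTCH2, by 0.24 for MAML3 and by 0.20 for JAG1. RBPJ stood lower in GO than in rGO by a difference of -0.19, and HES1 (-0.03), NOTCH1 (-0.02), JAG2 (0.01) and NOTCH3 (0.06) were nearly level. In GO against rGO, 1 of the 6 genes past the filter was at least 1.5-fold higher (MAML2), beside 1.82% of all genes, and 0 were at least 1.5-fold lower, beside 3.2%. The median over the 9 genes was 0.06, with 6 above 0, beside 0.01 and 53.1% above 0 over all 18417 genes. This comparison uses the same GO array as the first, so it does not add an independent measurement of GO.

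For a sense of technical spread, paired probe sets of 1 gene, each past the filter, differed in their GO difference with a robust SD of 0.09 per probe set (366 genes), and in their rGO difference with one of 0.06. These figures leave out the variation between dishes and arrays. Differences of all genes past the filter had a robust SD of 0.24 after GO and 0.12 after rGO. By that scale JAG1, NOTCH3, RBPJ and HES1 lay within 1 robust SD of 0 after GO, and NOTCH2 and MAML2 lay beyond it. After rGO, MAML2 and HES1 lay beyond 1 robust SD of 0, and NOTCH2, NOTCH3, JAG1 and RBPJ lay within it. Many other genes lay beyond it too. Of all genes past the filter, 10.1% differed by more than NOTCH2 after GO, and 22.8% by more than HES1 after rGO. The GO difference of MAML2 was known when the set was chosen, so nothing is read from this sorting.

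The other lists of the pathway held 77 genes. Of them 72 were measured and 50 passed the filter, with 27 above 0 and 23 below after GO and a median of 0.01. Over all genes past the filter 51.1% stood above 0, and the median was also 0.01. In GO against control 0 of the 50 were at least 1.5-fold higher, beside 1.91% of all genes, and 1 was at least 1.5-fold lower, beside 4.23%. After rGO 0 were past that size in either direction, beside 0.0271% higher and 0.127% lower. Counts this small lie near those shares and say nothing particular of the pathway. The 1 gene was HDAC2, a histone deacetylase of corepressor complexes, with values of 10.12 in control, 9.46 after GO and 9.999 after rGO. It was 1.59-fold lower after GO (-0.67), while its paralogue HDAC1 stood at 0.11 and HDAC3 at -0.04.

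Among the remaining nuclear coregulators, the acetyltransferases that mastermind proteins recruit, EP300 and CREBBP, stood at 0.31 and 0.30 after GO and at 0.11 and 0.16 after rGO. EP300 and CREBBP, like KAT2A and KAT2B below, were picked after their values were seen. ATXN1, which binds RBPJ as a corepressor, stood at 0.47 and the Groucho corepressor TLE1 at 0.36 after GO. Over the 16 coregulators past the filter 10 were above 0 and 6 below after GO, beside 51.1% above 0 over all genes past it. The other acetyltransferases of the list, KAT2A and KAT2B, stood at -0.14 and -0.16.

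Receptor cleavage genes were split, with 4 of the 7 past the filter above 0 and 3 below after GO. ADAM10, the protease of the first ligand-induced cut, was lower by a difference of -0.27 and NCSTN, the nicastrin subunit of gamma-secretase, stood at 0.22. APH1B, a further subunit, stood at 0.38 but lay under the filter level. After rGO 6 of the 7 stood below 0, beside 5866 of all 11050 genes past the filter. APH1A stood at -0.26 and FURIN, which cuts the receptor on its way to the surface, at -0.22.

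Of the glycosylation genes, which tune the affinity of receptors for their ligands, the fringe enzymes RFNG and LFNG stood at 0.26 and 0.27 after GO, LFNG under the filter level, and the glucosyltransferase POGLUT1 at -0.25. The ubiquitin and endocytosis genes had 6 of 11 above 0. AAK1, a kinase of clathrin-coated vesicles that also acts on NUMB, stood at 0.51, MIB1, the ubiquitin ligase that activates ligands, at -0.24, and DTX2, under the filter level, at -0.11. Among the other receptors and ligands, all 4 past the filter stood below 0 after GO, as did 5400 of all 11050 genes past it. NOTCH4 stood at -0.20 and DLK1, a non-canonical ligand of fetal liver, at -0.12. EGFL7 (-0.02) and DLK2 (-0.0012) were nearly level with control. DLL1 (-0.18) and CNTN6 (-0.17) lay under the filter level.

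The list of other HES and HEY family genes and further targets gave no common direction. Of 15 measured, 8 passed the filter, with 4 above 0 and 4 below after GO. HES6 stood at -0.22, HES4 at 0.02, NRARP, a feedback inhibitor of the complex, at 0.07, MYC at -0.07 and CCND1 at 0.09. GATA3 (0.30), HEY1 (0.24) and HES7 (0.23) stood higher but under the filter level. After rGO 2 of the 8 stood above 0 and 6 below, with HES4 at -0.25. Of all genes past the filter, 46.8% stood above 0 after rGO.

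**Figure D3:**
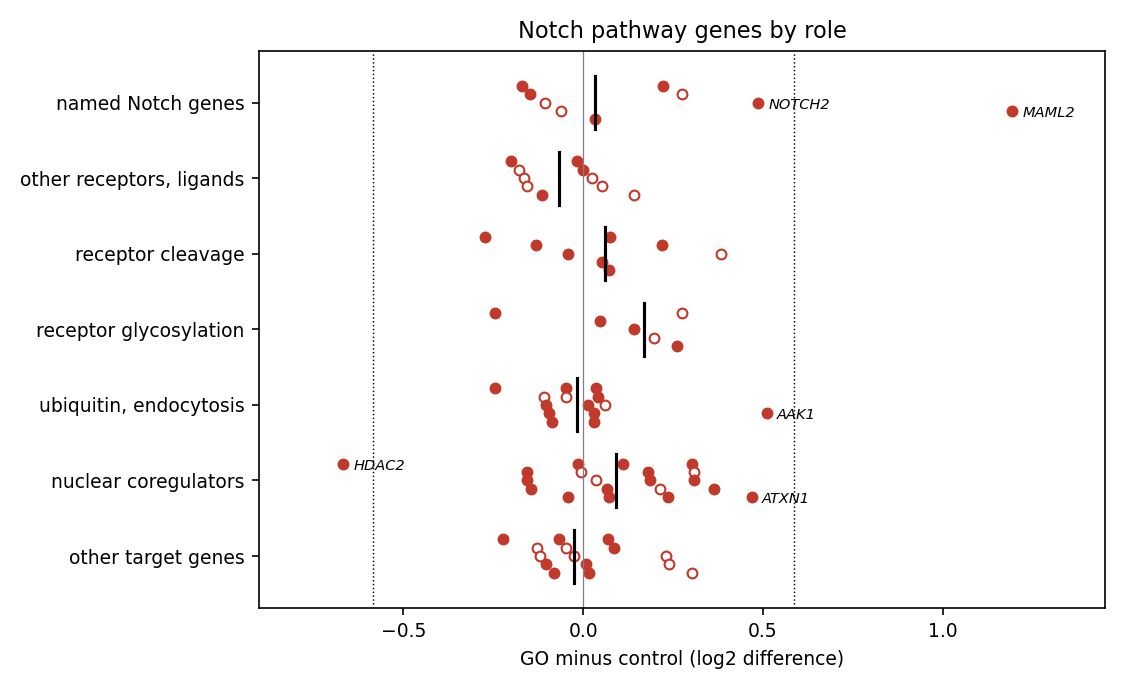
GO minus control log2 differences (horizontal axis) of the named genes and of 6 lists of pathway genes, 1 point per gene, filled where the gene passed the level filter, with a black bar at each list's median over measured genes. MAML2 at 1.19 and HDAC2 at -0.67 are the points outside the dotted 1.5-fold lines.

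By Euclidean distance over both differences from control, the 5 genes past the filter closest to MAML2 were ICAM1, an adhesion molecule (1.15 after GO and 0.10 after rGO), PIGZ, a mannosyltransferase (1.28 and 0.27), TAGLN2, an actin binder (1.07 and 0.18), HK2, a hexokinase (1.09 and 0.28), and MAB21L3 (1.11 and 0.09). Their distances from MAML2 ran from 0.11 to 0.13 on the log2 scale, over 3 arrays. No other gene of the Notch lists was among them.

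The difference of MAML2 was not shared by its neighbours on chromosome 11. Of its 10 nearest measured neighbours, 5 to each side, 3 stood above 0 and 7 below after GO, with a median of -0.06. CEP57, a centrosome protein, was the lowest (-1.02) and JRKL the highest (0.46). MAML2 spans 366598 bases of GRCh38.p14, and of the 284 genes past the filter with a span of at least 300 kb it had the highest GO difference, beside a median of 0.05 over those genes. That difference was known when the set was chosen, so nothing is read from the rank. RBPJ, with a span of 329683 bases, is also among those genes of at least 300 kb. MAML3 is longer still (437432 bases) but lay under the filter, so it is not counted there.

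**Figure D4:**
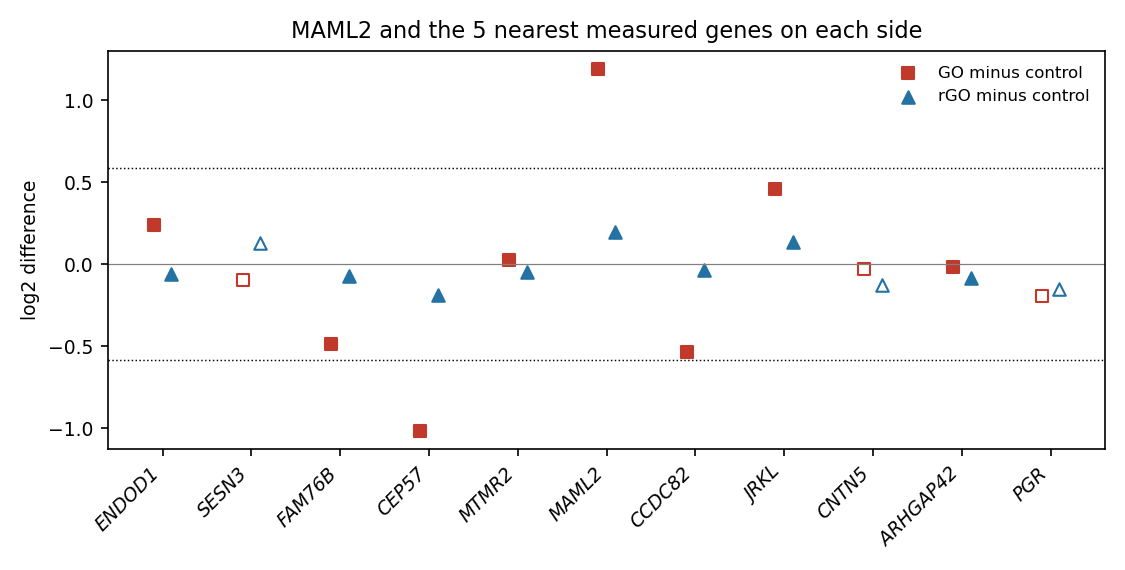
Log2 differences from control after GO (squares) and rGO (triangles) for MAML2 and 5 measured neighbours to each side, ordered by RefSeq position, open where the gene lay under the level filter. MAML2 stood at 1.19 after GO, while its 10 neighbours ran from -1.02 to 0.46.

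The label of a liver cell line was checked against markers. All 9 measured hepatocyte markers, ALB and APOB among them, lay above the filter level on each array. Among them FGB, a fibrinogen chain, had values of 11.62, 10.77 and 11.52 in control, GO and rGO, a GO difference of -0.85. TTR, the thyroid hormone carrier, had values of 11.38, 12.08 and 11.54, a GO difference of 0.70, and the transcription factor CEBPA stood at -0.55. FGB and TTR were thus past 1.5-fold after GO in opposite directions. That was 1 of the 9 markers higher and 1 lower, beside 1.91% and 4.23% of all genes past the filter. Of 8 endothelial markers 7 lay under the filter level on each array, and of 7 leukocyte markers 5 did. The leukocyte exceptions were CD68 (9.61, 9.98 and 9.51 in control, GO and rGO) and LYZ, which stood high (13.23, 13.43 and 13.38). PTPRC, which defines leukocytes, stood at 3.65, 3.56 and 3.76. Summed log2 values of the endothelial list were 42.5 in control, 41.4 after GO and 42.1 after rGO, and those of the leukocyte list 49.1, 49.6 and 49.1. Of 8 stellate and fibroblast markers only 4, 4 and 5 lay under the filter level in control, GO and rGO, with ACTA2, an actin that is not confined to those cells, at 9.66 in control and COL1A1 at 7.43. Their summed log2 values were 51.1, 51.3 and 50.5. PDGFRB, a growth factor receptor, had values of 6.97, 7.30 and 6.57. That placed GO 0.73 above rGO, past 1.5-fold, beside 1.82% of all genes past the filter. Its rGO value lay under the filter level, where background may hold a value down. The GO differences of the other genes named by rule were 0.38 for CD68, -0.36 for CD14 and 0.21 for CSF1R among leukocyte markers, -0.47 for EMCN, -0.44 for KDR and 0.17 for TEK among endothelial markers, and -0.21 for COL3A1 and 0.18 for LUM among stellate and fibroblast markers. Of these 8 genes all but CD68 lay under the filter level. The part of these markers in the differences of the Notch genes was not tested.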

How the data were processed

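Total RNA of HepG2 cells was converted to biotin-labelled cDNA and hybridised to 3 Affymetrix arrays, 1 per group. The deposited values are log2 expression values of 33297 probe sets. The authors' normalization is known in part: RMA and MAS5 appear in the submitters' processing notes with no role stated, the array medians were 6.65 (control), 6.63 (GO) and 6.66 (rGO), and scaling beyond that is unknown. The genome build and annotation were not given in the sources used here.

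Probe sets were named through the platform's annotation, which can be old, with 19460 carrying 1 symbol, 1754 several and 12083 none listed. A gene was represented by its probe set with the highest mean. Genes passed the level filter at the 40th percentile of that mean. Log2 values were subtracted between arrays, and genes were counted past 1.5-fold, since 1 array per group allows no test and limits the precision. The counting was tested on simulated data whose spread was set from the rGO differences (robust SD 0.12, against 0.24 after GO). That test does not cover counting at the wider spread after GO. The named genes and lists were chosen with earlier results of these data known.

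All probe sets of the 10 genes are named. From each other list the 3 genes with the largest absolute GO difference and any past 1.5-fold were to be named; further list members were picked after their values were seen. MAML2 was compared by Euclidean distance over its differences from control. RefSeq (GRCh38.p14) gave gene order and promoters, with 18385 genes matched by Entrez ID. The alternatives tried were a loess (span 0.3) on level, median centring, quantile normalization, averaged probe sets, no filter or a 60th percentile filter, sizes of 2-fold and 3-fold, and means. Computations ran in Python 3.11.15 with pandas 2.3.3, numpy 2.4.6, statsmodels 0.14.6, scipy 1.17.1 and, for plots, matplotlib 3.10.9.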

Additional observations from a re-analysis of the deposited data

How the results depend on the processing

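MAML2 stayed at least 1.5-fold above control after GO under quantile normalization, median centring and loess on level, between 1.18 and 1.22 on the log2 scale, and NOTCH2 stayed between 0.47 and 0.51. The array medians lay close together, and the largest move of a single gene under these alternatives was 0.042. Such rescaling could hardly bring MAML2 under 1.5-fold, and its GO difference was known when the set was chosen. Nothing is therefore read from its staying there. Of 81 values of single genes under these 3 alternatives, 81 moved by less than 0.1, and 4 changed sign, the largest of them -0.03 in the main setting. Averaging probe sets could change RBPJ alone, since the other 8 genes have 1 each; RBPJ after GO then stood at -0.02. With 2-fold in place of 1.5-fold, 0 genes of the set were apart in GO against rGO, and with 3-fold 0 were past the size in GO against control or against rGO. With the 60th percentile filter the median over the genes left was 0.22 in GO against control and 0.20 in GO against rGO, because fewer genes were counted. Means in place of medians were 0.19 and 0.18. Over all genes, 211 were higher and 467 lower after GO at 1.5-fold, 28 and 101 at 2-fold, and 1 and 8 at 3-fold. In rGO against control the 3 higher and 14 lower became 14 and 52 with no filter, 0 and 9 with the 60th percentile filter, 1 and 14 with probe sets averaged, and 0 and 2 at 2-fold. In GO against rGO the 201 and 354 became 29 and 59 at 2-fold and 1 and 7 at 3-fold. The median over the 6 genes past the filter, added after the data had been seen, was 0.13 after GO. No paired analysis was possible because each group had 1 array. With 1 array per group no difference can be told from variation between dishes, and values near or under 6.66 may be held down by background.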

Other observations

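Of 10 listed markers of bile duct and progenitor cells, the liver cell fates in which Notch acts, 9 were measured and 7 passed the level filter. After GO 4 of the 7 stood above control and 3 below. PROM1, a membrane glycoprotein of progenitor cells, had values of 8.55 in control, 9.42 after GO and 8.64 after rGO, a GO difference of 0.87. KRT19, the keratin of bile duct cells, had values of 9.53, 10.32 and 9.36, a GO difference of 0.79 and an rGO difference of -0.17. These 2 of the 7 were at least 1.5-fold higher on the GO array, beside 1.91% of all genes past the filter; the list was chosen with earlier results known. SOX9, a transcription factor of bile duct cells, stood at 0.29 and ONECUT2 at 0.36, whereas EPCAM stood at -0.34 and SPP1, the osteopontin gene, at -0.25. KRT7, a further bile duct keratin, lay under the filter level on all 3 arrays (6.40, 6.10 and 6.48). The list as a whole thus gave no single direction.

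Genes past the filter were also grouped by their span in RefSeq, since MAML2, MAML3 and RBPJ are long genes. MAML3 lay under the filter and is in none of these groups. The 284 genes of at least 300 kb had a median GO difference of 0.05 with 61.3% above 0, with 3.87% of them 1.5-fold or more above control and 2.11% that far below. The 1488 genes of 100 to 300 kb were close to them, with a median of 0.04, 56.4% above 0, 2.82% that far above and 2.42% that far below. The 3334 genes of 30 to 100 kb had a median of -0.01, 48.4% above 0, 1.68% that far above and 5.64% that far below. The 3186 genes of 10 to 30 kb had a median of -3.7e-05, 49.9% above 0, 1.38% that far above and 4.99% that far below. The 2745 shortest genes, under 10 kb, had a median of 0.01, 51.9% above 0, 2.11% that far above and 2.84% that far below. Across 11037 genes, which are not independent replicates, Spearman's rho between span and difference was 0.01 for GO against control and 0.15 for rGO against control.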
